A study of Mus musculus with 16 samples.

Results

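The genes described here encode the chains of collagen: 42 of the 19715 genes in the count matrix have a name made of Col, a number, the letter a and a number, with nothing more. The rule that picks them reads the name alone and no measured value. Of these, 11 encode fibrillar chains (collagens I, II, III, V, XI, XXIV and XXVII), 6 encode the chains of collagen IV, which builds basement membranes, and 25 encode chains of other types. They were followed through single-cell RNA sequencing of subcutaneous tumors grown from NB9464D, a mouse neuroblastoma cell line. The hosts were male C57BL/6 mice, aged 8 weeks, either CD200R-/- (KO; the growth protocol writes CD200-/-) or wild type (WT), and all carried the same cell line as graft. CD200R is an inhibitory receptor of myeloid cells. Tumors were taken on day 28 and digested with type IV collagenase at 1 mg/mL, and the cells loaded were total tumor cells (the tumor libraries) or CD45+ sorted leukocytes (the sorted libraries).

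Collagens are trimers of chains that wind around each other along a stretch of regularly repeated glycines. Type I collagen normally joins α1 chains (Col1a1) with an α2 chain (Col1a2), although a trimer of α1 chains alone also exists. Fibroblasts are the main source of fibrillar collagen in tumors, endothelial cells make much collagen IV, and leukocytes make little of either. Secretion needs hydroxylation of prolines and lysines, the chaperone Serpinh1, trimming of the ends and, outside the cell, cross-linking by lysyl oxidases.

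The labels give 16 samples, 4 per group, but the cells carry only 1 library name per group, so each group counts as 1 library. The KO tumor library held 5897 cells and the WT tumor library 4955. The KO sorted library held 4305 cells and the WT sorted library 5219. Totals ran from 29200338 UMIs (unique molecular identifiers, each standing for 1 captured RNA molecule) in KO sorted to 103877007 in KO tumor. With 1 library per group there was no test and no p-value. Intervals are at 95% and cover counting error only, and genotype cannot be told apart from differences between animals, grafts or preparations. Cd200r1, the targeted gene, had 0 UMIs in macrophages of the KO tumor library and 65 in those of the WT tumor library. In macrophages of the sorted libraries it had 0 UMIs in KO and 2358 in WT. The labels do not give the deleted exons. There were 113 cell barcodes found in more than 1 library, which touched 60 to 91 cells of each library.

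Cell types were taken from the authors' 19 names. In the tumor libraries, cells were named fibroblasts (2493 in KO, 2461 in WT) or neuroblastoma (1283 in KO, 1665 in WT). These 2 classes did not separate cleanly by their defining markers. Both carried fibroblast genes. Decorin (Dcn) stood at 367 CPM (UMIs of the gene scaled to 1000000 UMIs of the class) in KO and 243 in WT fibroblast-named cells. In KO and WT neuroblastoma-named cells it stood at 195 and 198 CPM. Other fibroblast genes differed between names or libraries. In KO, Dpt stood at 65.9 CPM in fibroblast-named and 24.5 CPM in neuroblastoma-named cells, while Fbln1 stood at 60.5 and 79.5 CPM. In KO and WT fibroblast-named cells, Lum stood at 136 and 339 CPM and Mfap5 at 23.0 and 2.45 CPM. Both classes also carried Hand2, a transcription factor of sympathetic neuroblasts and of some fibroblasts. It stood at 333 CPM in KO and 181 in WT fibroblast-named cells and at 245 and 154 CPM in KO and WT neuroblastoma-named cells. Of 11 neuroblastoma markers only 5 are in the files, and of those Hand2 alone reached 10 CPM in these cells. Transcripts of 4 Y-linked genes, which male host cells express, summed to 1.12 CPM in KO and 0.332 CPM in WT fibroblast-named cells, and to 167 and 95.4 CPM in KO and WT endothelial cells. The names are therefore used as labels only ("fibroblast-named"), and the 2 classes together are called graft cells for short. They held most of the collagen UMIs of the tumor libraries by count, though other names reached a higher share of their own UMIs. No marker list for leukocytes or macrophages exceeded a summed 20.9 CPM in them.

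In fibroblast-named cells of the tumor libraries, the collagen chains did not shift together: some chains were many times higher in the KO library and others nearly missing from it. A log2 ratio of KO over WT was taken for each gene with at least 50 UMIs over both libraries, relative to the median gene, whose own ratio by total UMIs was 0.29. A gene was called higher or lower when it differed by at least 1.5-fold from that median gene. Of the 42 chains, 32 had enough UMIs, and of these 15 (46.9%) were higher and 9 (28.1%) lower in KO, against 17.5% of all 13211 genes higher and 15.2% lower. Their median log2 ratio was 0.10, within the quartiles of all genes, -0.37 to 0.40. In neuroblastoma-named cells 31 chains had enough UMIs, and 11 (35.5%) were higher and 13 (41.9%) lower, against 14.3% and 14.9% of all 12858 genes. Their median log2 ratio was -0.08, with the median gene at 0.19 by total UMIs. All 11 chains higher in neuroblastoma-named cells were also higher in fibroblast-named cells, all 9 chains lower in fibroblast-named cells were also lower in neuroblastoma-named cells, and 0 chains went opposite ways. These counts come from the same pair of libraries, so one does not stand as a repeat of the other. The overlap of calls between the 2 classes was not taken over all genes, so it has no background here.

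**Figure D1:**
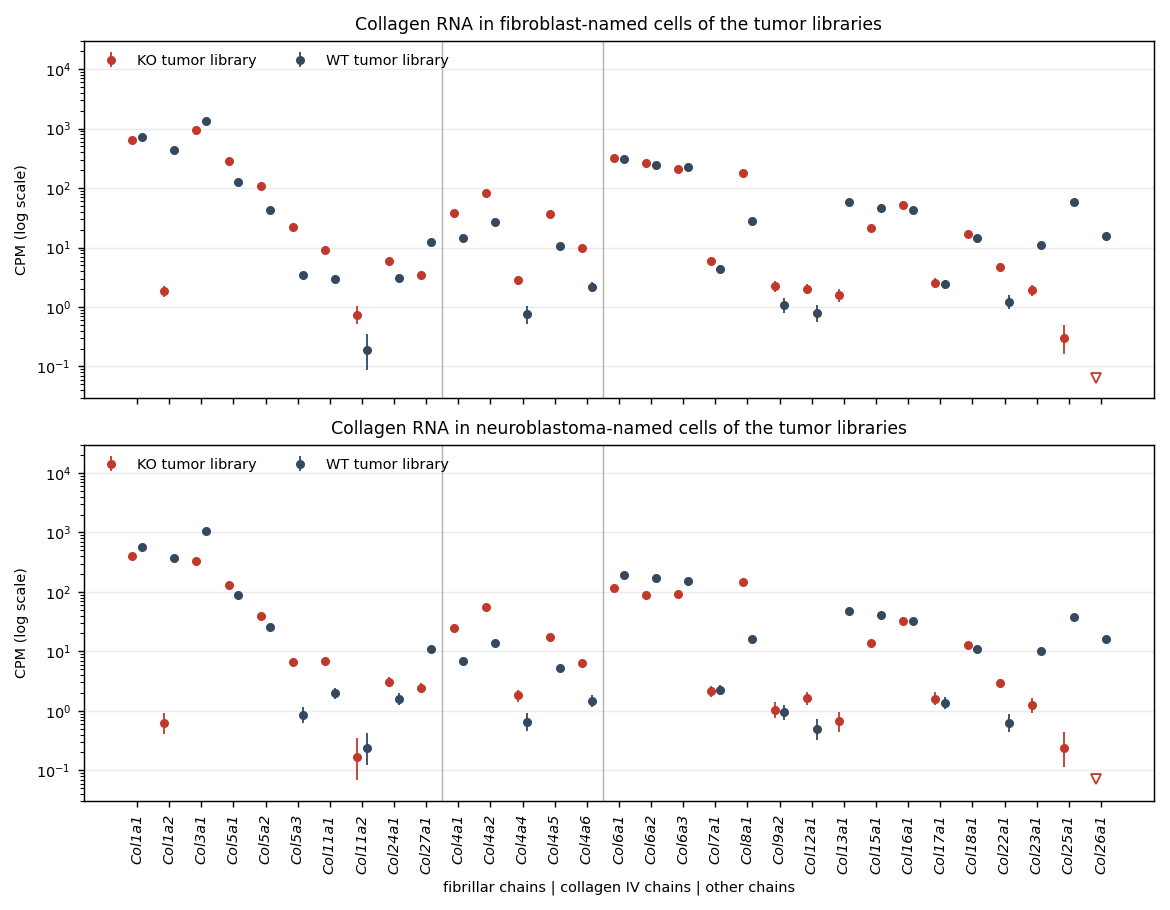
Level of the 31 collagen chains described one by one, in CPM on a log scale, in fibroblast-named (top) and neuroblastoma-named cells (bottom) of the KO tumor library (red, left of each pair) and the WT tumor library (blue). Bars are exact 95% Poisson intervals and open triangles mark 0 UMIs, drawn at the floor of 3 counts; Col1a2 lies at 1.86 CPM in KO and 437 CPM in WT fibroblast-named cells, next to Col1a1 at 631 and 723 CPM.

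Col1a2, the α2 chain of type I collagen (chromosome 6, 4504814 to 4541544, plus strand, mm10), was the abundant chain that differed most. It had 88 UMIs (1.86 CPM, interval 1.5 to 2.30) in KO fibroblast-named cells and 21012 UMIs (437 CPM, interval 431 to 442) in WT ones. In neuroblastoma-named cells it had 26 UMIs (0.623 CPM) in KO and 18393 UMIs (366 CPM) in WT. The log2 ratios were -8.16 (interval -8.48 to -7.86) and -9.39 (-10.0 to -8.84). At least 1 Col1a2 UMI was found in 1.60% of KO and 77.4% of WT fibroblast-named cells, and in 0.201% and 50.4% of them after thinning each cell to 2000 UMIs. Its partner Col1a1 (chromosome 11, 94936224 to 94953042, plus strand), the α1 chain, was abundant in every group of graft cells. Col1a1 stood at 631 CPM in KO and 723 CPM in WT fibroblast-named cells, and at 402 and 578 CPM in KO and WT neuroblastoma-named cells. Its log2 ratios were -0.49, short of the 1.5-fold call, and -0.72.

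The absence of Col1a2 went cell by cell. Among fibroblast-named cells with at least 5 Col1a1 UMIs, 33 of 2132 KO cells (1.55%, interval 1.07 to 2.17%) also held a Col1a2 UMI, against 1843 of 2310 WT cells (79.8%, 78.1 to 81.4%). Among neuroblastoma-named cells it was 19 of 1169 KO cells (1.63%) and 1392 of 1620 WT cells (85.9%). The whole KO tumor library held 122 Col1a2 UMIs in 66 of its 5897 cells, and the 2 cells with the most, both fibroblast-named, held 22 and 20 of them. The ratio of Col1a1 to Col1a2 UMIs was 338 in KO and 1.66 in WT fibroblast-named cells, and 645 in KO and 1.58 in WT neuroblastoma-named cells. A further class, cells named stem cells, held 218 KO cells but only 8 WT cells. There the UMIs of Col1a1 and Col1a2 were 1969 and 2 in KO, and 72 and 1 in WT, so the WT cells of this name also lacked the WT ratio.

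Promoter windows are shown for 3 of the chains that stood furthest down (Col1a2, Col13a1 and Col25a1; none was matched for Col26a1), for the head-to-head pair Col4a1 and Col4a2, and for Col8a1, which was far higher in KO. They run from 250 bases before to 50 bases after the gene start given by RefSeq on GRCm38.p6 (the build also called mm10) and are printed 5′ to 3′ on the gene's strand. Capitals mark 3 motifs on either strand. One is CCAAT, which reads ATTGG when it lies on the other strand. Another is GGGCGG, the core of a GC box, which then reads CCGCCC. The last is TATAAA, which then reads TTTATA. No motif overlaps another in these letters. They are reference sequence, not sequence read from these cells. For 2 genes the RefSeq start lies inside the gene span given in this text. The Col25a1 start is 130180845 in a span that begins at 130131501. The Col1a2 start is 4505618 in a span that begins at 4504814. Which start these cells use was not tested. The windows lie at chr6:4505368-4505667 (Col1a2, plus strand), chr10:61979059-61979358 (Col13a1, minus), chr3:130180595-130180894 (Col25a1, plus), chr8:11312777-11313076 (Col4a1, minus), chr8:11312555-11312854 (Col4a2, plus) and chr16:57754688-57754987 (Col8a1, minus).
Col1a2: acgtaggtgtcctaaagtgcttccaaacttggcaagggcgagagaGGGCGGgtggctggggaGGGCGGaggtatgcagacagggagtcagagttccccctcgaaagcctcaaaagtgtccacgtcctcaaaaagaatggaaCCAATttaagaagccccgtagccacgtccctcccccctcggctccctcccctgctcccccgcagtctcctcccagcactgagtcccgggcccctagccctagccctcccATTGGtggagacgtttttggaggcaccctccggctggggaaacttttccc
Col13a1: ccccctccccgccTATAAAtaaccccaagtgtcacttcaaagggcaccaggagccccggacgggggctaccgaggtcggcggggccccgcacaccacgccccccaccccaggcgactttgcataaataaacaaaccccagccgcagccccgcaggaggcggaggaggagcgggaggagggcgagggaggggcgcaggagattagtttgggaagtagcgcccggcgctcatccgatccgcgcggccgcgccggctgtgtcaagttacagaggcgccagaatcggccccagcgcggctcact
Col25a1: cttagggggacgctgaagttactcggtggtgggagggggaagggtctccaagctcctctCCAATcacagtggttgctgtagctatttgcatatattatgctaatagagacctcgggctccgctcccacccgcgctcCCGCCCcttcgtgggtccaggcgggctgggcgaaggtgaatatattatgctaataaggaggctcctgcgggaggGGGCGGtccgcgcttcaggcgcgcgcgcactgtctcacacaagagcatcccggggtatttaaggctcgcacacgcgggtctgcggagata
Col4a1: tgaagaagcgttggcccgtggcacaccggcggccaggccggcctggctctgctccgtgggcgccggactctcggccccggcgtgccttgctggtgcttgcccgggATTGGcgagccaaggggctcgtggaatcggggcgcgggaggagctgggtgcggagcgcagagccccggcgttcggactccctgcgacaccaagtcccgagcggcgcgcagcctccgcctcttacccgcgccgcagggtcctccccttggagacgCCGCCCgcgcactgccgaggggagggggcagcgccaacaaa
Col4a2: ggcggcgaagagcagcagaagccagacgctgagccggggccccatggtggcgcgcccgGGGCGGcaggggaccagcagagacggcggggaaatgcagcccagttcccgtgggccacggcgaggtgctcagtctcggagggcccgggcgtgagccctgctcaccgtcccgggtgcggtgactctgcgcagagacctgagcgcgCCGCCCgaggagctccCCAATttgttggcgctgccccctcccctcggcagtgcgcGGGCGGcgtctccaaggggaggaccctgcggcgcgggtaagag
Col8a1: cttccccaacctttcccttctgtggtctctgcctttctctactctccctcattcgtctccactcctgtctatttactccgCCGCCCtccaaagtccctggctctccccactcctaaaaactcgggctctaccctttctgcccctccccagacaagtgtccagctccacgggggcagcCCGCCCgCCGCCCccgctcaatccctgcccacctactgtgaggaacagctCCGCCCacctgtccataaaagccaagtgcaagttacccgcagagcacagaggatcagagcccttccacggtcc

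The windows of the chains lower in KO had no motif in common. Col1a2 holds 2 CCAAT and 2 GGGCGG, Col25a1 holds 1 CCAAT and 2 GGGCGG, and Col13a1 holds neither but 1 TATAAA. Among the chains higher in KO, Col8a1 holds 4 GGGCGG and no CCAAT, Col4a1 holds 1 of each, and Col4a2 holds 1 CCAAT and 3 GGGCGG. RefSeq windows were matched for 33 of the 42 chains, 35 windows in all. GGGCGG was in 62.9% of these and in 35.7% of all 32851 windows of the same length. The median GC content was 60% in the chains' windows and 52.7% in all windows. CCAAT was in 31.4% of the chains' windows and 37.4% of all, and TATAAA in 14.3% and 13.6%. A match describes the letters and is not a site in use.

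Collagen III and collagen I share fibrils in soft tissue, and Col3a1 was the most abundant chain in 3 of the 4 groups of graft cells. It stood at 939 CPM in KO and 1355 CPM in WT fibroblast-named cells, and at 336 and 1055 CPM in KO and WT neuroblastoma-named cells. The log2 ratios were -0.82 (interval -0.84 to -0.80) and -1.84 (-1.87 to -1.82), both called lower. The ratio of Col3a1 to Col1a1 UMIs was 1.49 in KO and 1.87 in WT fibroblast-named cells, and 0.837 and 1.82 in KO and WT neuroblastoma-named cells. Col27a1, a fibrillar chain best known from cartilage, was also lower. It stood at 3.43 CPM in KO and 12.5 CPM in WT fibroblast-named cells and at 2.42 and 10.9 CPM in KO and WT neuroblastoma-named cells (log2 ratios -2.16 and -2.36).

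The chains of collagens V and XI, which sit inside fibrils and set their number and width, ran the other way. Col5a1 stood at 283 CPM in KO and 129 CPM in WT fibroblast-named cells (log2 ratio 0.85), and at 129 and 89.7 CPM in KO and WT neuroblastoma-named cells (0.33, short of the call). Col5a2 stood at 107 and 42.7 CPM in KO and WT fibroblast-named cells (1.03) and at 40.1 and 25.8 CPM in KO and WT neuroblastoma-named cells (0.44, short of the call). Col5a3, the least abundant chain of collagen V, differed most: 22.1 CPM in KO and 3.39 CPM in WT fibroblast-named cells, and 6.76 and 0.855 CPM in KO and WT neuroblastoma-named cells. Its log2 ratios were 2.41 (interval 2.18 to 2.66) and 2.79 (2.32 to 3.29). Col11a1 stood at 9.04 CPM in KO and 2.97 CPM in WT fibroblast-named cells, and at 6.93 and 1.97 CPM in KO and WT neuroblastoma-named cells (1.32 and 1.62). Col24a1, a fibrillar chain known from bone, stood at 6.02 and 3.03 CPM in KO and WT fibroblast-named cells and at 3.07 and 1.59 CPM in KO and WT neuroblastoma-named cells (0.70 and 0.75). It overlaps D530037P16Rik on the same strand, so reads of the 2 genes may be mixed. Col11a2 had 35 UMIs in KO and 9 in WT fibroblast-named cells, too few for a ratio, and Col2a1, the main collagen of cartilage, had 8 and 9. Of 9 fibrillar chains with enough UMIs, 5 were thus higher and 3 lower in fibroblast-named cells, and 3 higher and 4 lower in neuroblastoma-named cells. The shares over all genes were 17.5% higher and 15.2% lower in fibroblast-named cells, and 14.3% and 14.9% in neuroblastoma-named cells.

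**Figure D2:**
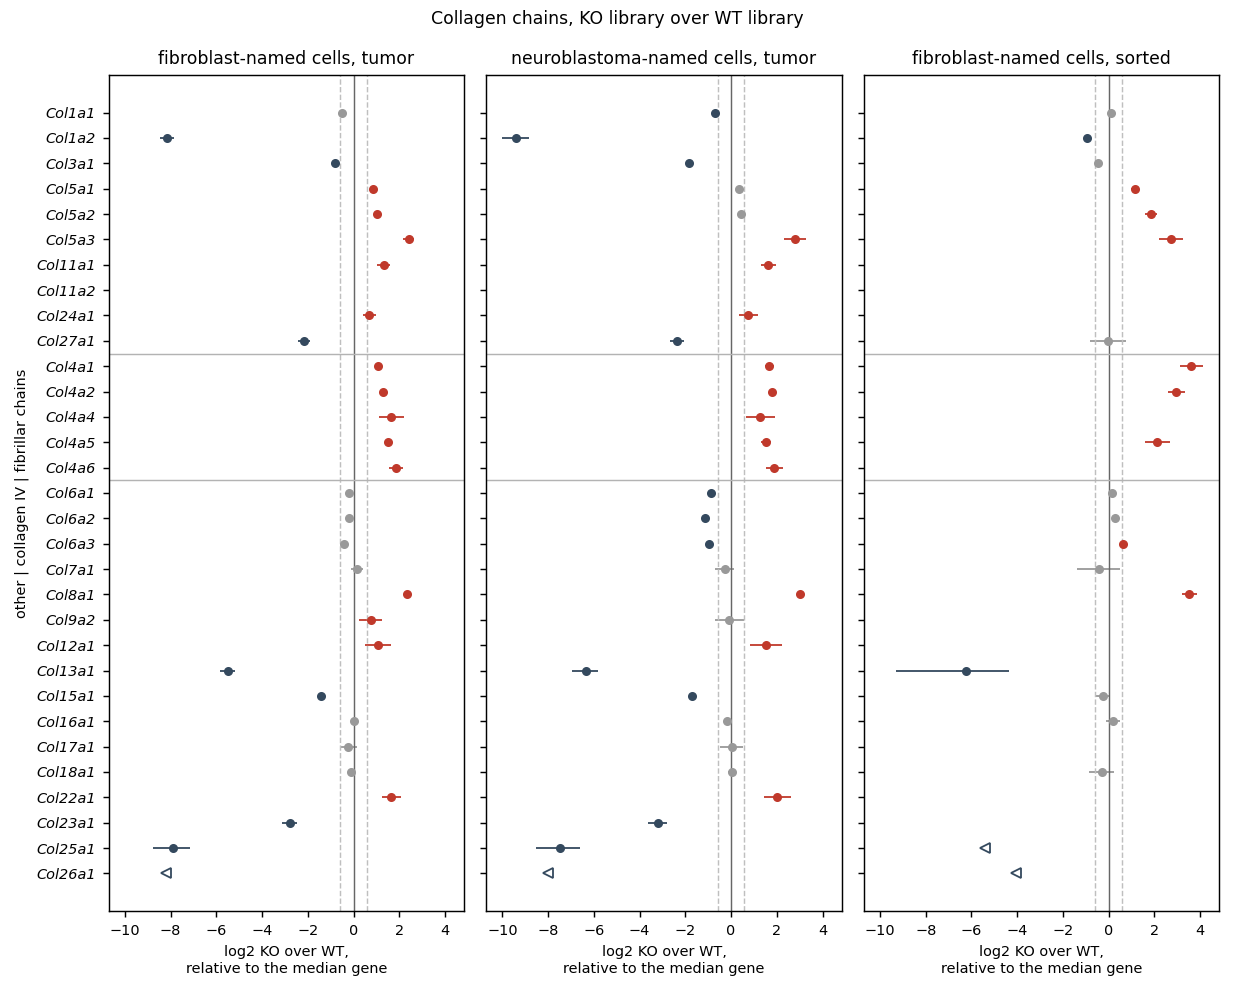
Log2 ratio of KO over WT for the chains described one by one, relative to the median gene, in fibroblast-named and neuroblastoma-named cells of the tumor libraries and fibroblast-named cells of the sorted libraries. Red points are higher and blue points lower by at least 1.5-fold (dashed lines), and gray points are neither. Bars are 95% counting intervals and open triangles are ratios at the floor of 3 counts. Collagen IV chains lie right of 0 in all 3 panels, and Col1a2 lies near -8 in the first panel and near -1 in the third.

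Every collagen IV chain with enough UMIs was higher in KO graft cells. Collagen IV trimers form the sheet of the basement membrane, with Col4a1 and Col4a2 in the common form. Col4a2 (chromosome 8, 11312805 to 11449287, plus strand) stood at 81.3 CPM in KO and 27.4 CPM in WT fibroblast-named cells, and at 55.3 and 13.9 CPM in KO and WT neuroblastoma-named cells. Col4a1 (chromosome 8, 11198423 to 11312826, minus strand) stood at 38.0 and 14.6 CPM in KO and WT fibroblast-named cells and at 24.8 and 6.80 CPM in KO and WT neuroblastoma-named cells. The log2 ratios were 1.28 and 1.80 for Col4a2 and 1.09 and 1.67 for Col4a1. At least 1 Col4a2 UMI was in 64.6% of KO and 18.4% of WT fibroblast-named cells (16% and 4.19% after thinning). The 2 genes lie head to head, with RefSeq starts 21 bases apart and 78 bases of their printed windows shared. Their UMI ratio, Col4a1 over Col4a2, differed little: 0.467 in KO and 0.534 in WT fibroblast-named cells, and 0.448 and 0.488 in KO and WT neuroblastoma-named cells.

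Col4a5 and Col4a6, the chains of a further trimer, are head to head on the X chromosome with starts 1343 bases apart. Col4a5 stood at 37.2 CPM in KO and 10.7 CPM in WT fibroblast-named cells, and at 17.4 and 5.27 CPM in KO and WT neuroblastoma-named cells (log2 ratios 1.5 and 1.53). Col4a6 stood at 9.68 and 2.20 CPM in KO and WT fibroblast-named cells and at 6.28 and 1.49 CPM in KO and WT neuroblastoma-named cells (1.84 and 1.88). Col4a4, a chain of the kidney form, stood at 2.84 and 0.748 CPM in KO and WT fibroblast-named cells and at 1.82 and 0.656 CPM in KO and WT neuroblastoma-named cells (1.63 and 1.28). Its partner Col4a3 had 17 UMIs in KO and 2 in WT fibroblast-named cells and got no ratio. All 5 chains counted were higher in both classes, with medians of 1.5 and 1.67. The share of all genes called higher was 17.5% in fibroblast-named and 14.3% in neuroblastoma-named cells. Collagen IV is also the main collagen of endothelial cells. Their marker Cdh5 stood at 0.166 CPM or less in graft cells of both tumor libraries. The other endothelial markers are not given here, and a part of endothelial RNA in these levels was not tested. The share of cells moved with the level: 372 of 2493 KO fibroblast-named cells had no collagen IV UMI, against 1790 of 2461 WT ones.

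**Figure D3:**
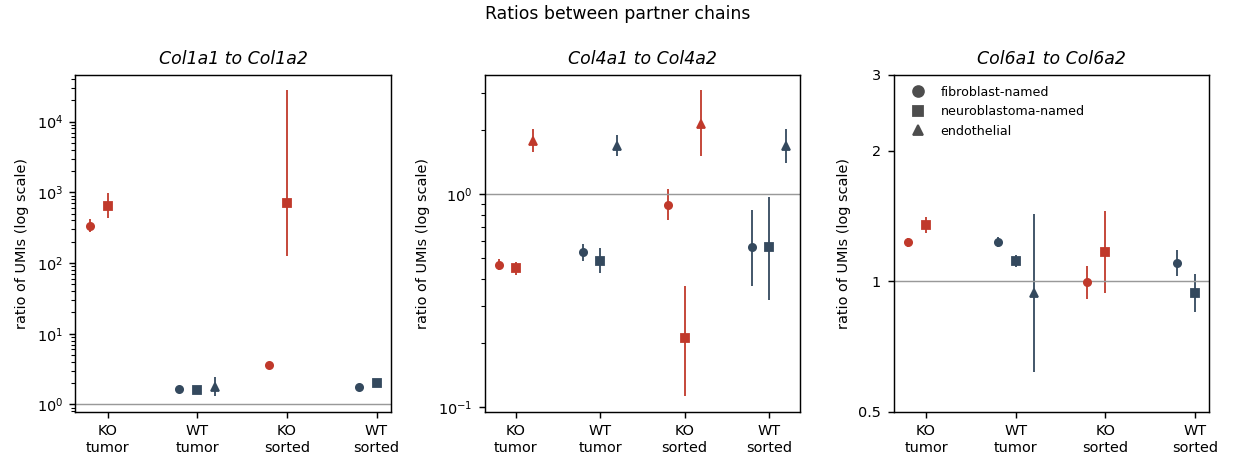
Ratio of UMIs between partner chains, on a log scale, in fibroblast-named (circles), neuroblastoma-named (squares) and endothelial cells (triangles) of the KO (red) and WT (blue) libraries. Bars are 95% counting intervals; points need at least 50 UMIs over both chains. Col1a1 over Col1a2 reaches 338 and 645 in the KO tumor library against 1.66 and 1.58 in WT, while Col4a1 over Col4a2 is below 1 in graft cells of both tumor libraries and above 1 in endothelial cells.

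The 3 abundant chains of collagen VI, which forms beaded filaments around cells, were close between libraries in fibroblast-named cells and lower in KO neuroblastoma-named cells. Col6a1 stood at 320 CPM in KO and 304 CPM in WT fibroblast-named cells (log2 ratio -0.22, or 0.07 when scaled by total UMIs), and at 118 and 190 CPM in KO and WT neuroblastoma-named cells (-0.88). Col6a2 stood at 260 and 247 CPM in KO and WT fibroblast-named cells (-0.21, or 0.08 by total UMIs) and at 87.2 and 171 CPM in KO and WT neuroblastoma-named cells (-1.16). Col6a3 stood at 207 and 228 CPM in KO and WT fibroblast-named cells (-0.43) and at 91.1 and 155 CPM in KO and WT neuroblastoma-named cells (-0.96). Their UMI ratio Col6a1 over Col6a2, between genes that are neighbours on chromosome 10, was 1.23 in both KO and WT fibroblast-named cells and 1.35 and 1.11 in KO and WT neuroblastoma-named cells.

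Col8a1 encodes a short chain of a network collagen found around vessels and in the eye. Among chains above 100 CPM in KO it had the highest ratio. It stood at 176 CPM in KO (8330 UMIs) and 28.3 CPM in WT (1363 UMIs) fibroblast-named cells, and at 148 and 16 CPM in KO and WT neuroblastoma-named cells. The log2 ratios were 2.35 (interval 2.27 to 2.43) and 3.02 (2.91 to 3.13). A Col8a1 UMI was in 76.2% of KO and 15.9% of WT fibroblast-named cells, or 28.1% and 4.56% after thinning. The second chain of this collagen, Col8a2, was rare and went the other way, with 5 UMIs in KO and 73 in WT fibroblast-named cells and 1 and 49 in KO and WT neuroblastoma-named cells (log2 ratios -4.13 and -5.54).

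Transmembrane collagens, which stay anchored in the cell surface, were lower in KO with 1 exception. Col13a1 (chromosome 10, 61838236 to 61979108, minus strand) stood at 1.57 CPM in KO and 58.0 CPM in WT fibroblast-named cells, and at 0.671 and 48.5 CPM in KO and WT neuroblastoma-named cells. Its log2 ratios were -5.50 (interval -5.86 to -5.17) and -6.37 (-6.96 to -5.83). Col25a1 (chromosome 3, 130131501 to 130599877, plus strand), known from developing motor neurons and from amyloid plaques, had 14 UMIs in KO and 2753 in WT fibroblast-named cells, and 10 and 1879 in KO and WT neuroblastoma-named cells. That is 0.297 against 57.2 CPM and 0.240 against 37.4 CPM (log2 ratios -7.88 and -7.48). Col23a1 stood at 1.93 and 11 CPM in KO and WT fibroblast-named cells and at 1.25 and 10.0 CPM in KO and WT neuroblastoma-named cells (-2.80 and -3.20). Col17a1, a hemidesmosome chain of epithelia, was not called, at 2.52 and 2.41 CPM in KO and WT fibroblast-named cells (-0.23, or 0.06 by total UMIs) and 1.61 and 1.37 CPM in KO and WT neuroblastoma-named cells (0.03).

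Col26a1 (chromosome 5, 136741759 to 136883209, minus strand), a collagen-like secreted protein first described in mouse testis and ovary, was not detected in KO graft cells. It had 0 UMIs in KO and 743 in WT fibroblast-named cells, and 0 and 812 in KO and WT neuroblastoma-named cells. The WT levels were 15.4 and 16.1 CPM. A count of 0 allows up to 0.0635 CPM in KO fibroblast-named cells, so the log2 ratios were at most -8.22 and at most -8.00. The gene overlaps Gm20485 on the same strand, and reads may be split between them.

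Collagens XV and XVIII sit at basement membranes and carry glycosaminoglycans. Col15a1 stood at 21.6 CPM in KO and 47.0 CPM in WT fibroblast-named cells (log2 ratio -1.41), and at 14.0 and 40.2 CPM in KO and WT neuroblastoma-named cells (-1.72). Col18a1, which overlaps Slc19a1 on the other strand, was not called, at 16.7 and 14.7 CPM in KO and WT fibroblast-named cells (-0.11, or 0.18 by total UMIs) and 12.7 and 10.8 CPM in KO and WT neuroblastoma-named cells (0.05).

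Chains that bind the surface of fibrils or anchor membranes were scarce and mixed. Col16a1 was the most abundant, at 52.3 CPM in KO and 42.0 CPM in WT fibroblast-named cells (log2 ratio 0.02) and 32.2 and 32.1 CPM in KO and WT neuroblastoma-named cells (-0.19). Col22a1, known from muscle-tendon junctions, stood at 4.72 and 1.23 CPM in KO and WT fibroblast-named cells (1.66) and at 2.92 and 0.636 CPM in KO and WT neuroblastoma-named cells (2.01). Col12a1 stood at 2.01 and 0.789 CPM in KO and WT fibroblast-named cells (1.06) and at 1.63 and 0.497 CPM in KO and WT neuroblastoma-named cells (1.52). Both were thus called higher in both classes. Col9a2, a cartilage chain, stood at 2.22 and 1.08 CPM in KO and WT fibroblast-named cells (0.75, called higher) and at 1.03 and 0.954 CPM in KO and WT neuroblastoma-named cells (-0.08). Col7a1, the chain of anchoring fibrils, was not called, at 5.99 and 4.36 CPM in KO and WT fibroblast-named cells (0.17) and 2.13 and 2.25 CPM in KO and WT neuroblastoma-named cells (-0.27). Of the 11 chains below the minimum for a description of their own (50 UMIs in tumor graft cells for fibrillar and collagen IV chains, 200 for others), Col14a1 had 108 UMIs in KO and 6 in WT fibroblast-named cells (3.91). Col6a5 had 18 and 0 UMIs, and Col6a6 had 0 and 34, in KO and WT fibroblast-named cells. Col9a3 had 23 and 10 UMIs in KO and WT fibroblast-named cells. Col10a1, Col19a1, Col20a1 and Col28a1 had at most 3 UMIs in any of the 4 groups of graft cells. In all, 38 chains had a UMI in KO and 39 in WT fibroblast-named cells.

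Summed over all chains, collagen RNA was a smaller share of the KO than of the WT graft cells in the tumor libraries. It made up 0.325% of UMIs in KO and 0.383% in WT fibroblast-named cells, and 0.155% and 0.289% in KO and WT neuroblastoma-named cells. Fibrillar chains gave most of it and summed to a smaller share in KO, although some of them were higher there. Their sum was 0.200% and 0.271% in KO and WT fibroblast-named cells and 0.0928% and 0.213% in KO and WT neuroblastoma-named cells. Collagen IV was a larger share, with 0.0169% in KO and 0.00557% in WT fibroblast-named cells and 0.0106% and 0.00282% in KO and WT neuroblastoma-named cells. Cells varied widely within a class. The middle range (quartiles) of the per-cell share was 0.142 to 0.507% in KO and 0.238 to 0.526% in WT fibroblast-named cells, so the 2 libraries overlapped.

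**Figure D4:**
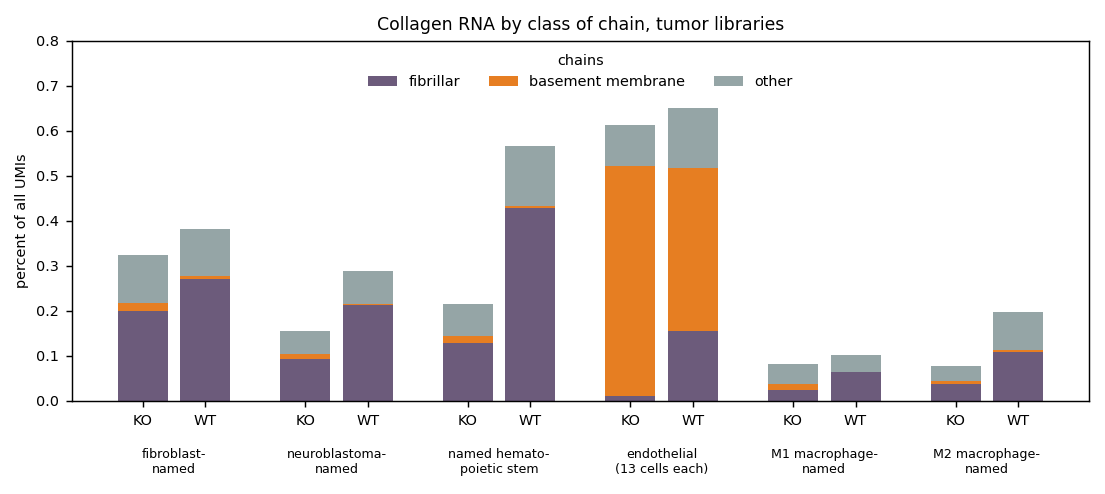
Collagen UMIs as a percent of all UMIs in 6 cell type names of the tumor libraries, KO left of WT in each pair, stacked by class of chain. Fibrillar chains (purple) are 0.200% of UMIs in KO and 0.271% in WT fibroblast-named cells, and collagen IV (orange, basement membrane) is 0.511% and 0.363% of UMIs in the 13 KO and 13 WT endothelial cells.

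Genes that build and bind collagen were taken as lists: 31 of biosynthesis, of which 30 are in the files, and 10 receptors, of which 9 are in the files. In fibroblast-named cells 7 of 26 biosynthesis genes with enough UMIs were higher and 7 lower, against 17.5% and 15.2% of all genes. In neuroblastoma-named cells 5 of 26 were higher and 8 lower, against 14.3% and 14.9% of all genes. The lowest were lysyl oxidases, which cross-link collagen outside the cell. Lox had 50 UMIs (1.06 CPM) in KO and 1368 (28.4 CPM) in WT fibroblast-named cells, a log2 ratio of -5.04 (interval -5.47 to -4.63). It had 9 and 768 UMIs in KO and WT neuroblastoma-named cells (-6.34). Loxl1 stood at 0.614 and 13.8 CPM in KO and WT fibroblast-named cells (-4.78, and -5.08 in neuroblastoma-named cells), and Loxl2 at 1.99 and 21.9 CPM (-3.75, and -3.28). Loxl3, of the same family, was called higher in fibroblast-named cells, at 7.88 and 4.24 CPM in KO and WT (0.60), but not in neuroblastoma-named cells (0.00). The next lowest, Serpinh1, is the chaperone of the collagen triple helix and stood at 112 CPM in KO and 501 CPM in WT fibroblast-named cells (-2.46, and -3.02 in neuroblastoma-named cells).

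The highest ratios belonged to Pcolce2, which aids removal of the C-terminal propeptide, and to P3h2, a prolyl 3-hydroxylase of collagen IV. Pcolce2 stood at 9.19 CPM in KO and 1.75 CPM in WT fibroblast-named cells (log2 ratio 2.11, and 2.55 in neuroblastoma-named cells). P3h2 stood at 13.5 and 2.72 CPM in KO and WT fibroblast-named cells (2.02, and 2.32). Among receptors 4 of 7 were higher and 1 lower in fibroblast-named cells, and 3 and 1 of 7 in neuroblastoma-named cells. Of all genes, 17.5% were higher and 15.2% lower in fibroblast-named cells, and 14.3% and 14.9% in neuroblastoma-named cells. Mrc2, a receptor that takes up collagen for breakdown, was the highest at 310 CPM in KO and 79.0 CPM in WT fibroblast-named cells (1.68, and 1.33). Itga11, an integrin chain for fibrillar collagen, was the receptor called lower, at 1.95 and 3.72 CPM in KO and WT fibroblast-named cells (-1.22, and -1.34).

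The sorted libraries held few cells with the 2 graft names, and how these came to be in CD45+ sorted libraries was not tested. Fibroblast-named cells numbered 78 in KO and 164 in WT, and 18 and 27 of these carried a barcode that also occurred in another library. Neuroblastoma-named cells of the sorted libraries went against their name, since Ptprc, the gene of CD45, stood at 1006 CPM in KO and 241 CPM in WT, against 2.8 and 0.3 CPM in KO and WT tumor libraries. In sorted fibroblast-named cells 8 of 21 chains were higher and 4 lower, against 24.1% and 26.8% of all 9075 genes. In sorted neuroblastoma-named cells 2 of 16 were higher and 10 lower, against 24.5% and 25.9% of all 10523 genes. Only 15.2% of KO and 34.6% of WT cells of this class held a Col1a1 UMI. The part of this difference in cell content in the calls was not tested.

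Collagen IV and Col8a1 were again higher in KO among sorted fibroblast-named cells. Col4a1 stood at 142 CPM in KO and 8.91 CPM in WT (log2 ratio 3.62), Col4a2 at 159 and 15.8 CPM (2.95), and Col8a1 at 320 and 21.4 CPM (3.53). One KO cell held 149 of the 266 Col4a1 UMIs. Col13a1 had 2 UMIs in KO and 279 in WT (-6.24, interval -9.29 to -4.37). Col25a1 had 0 and 238 UMIs and Col26a1 had 0 and 92 in KO and WT. Their log2 ratios at the floor of 3 counts were -5.43 and -4.06, with upper interval ends of -5.12 and -3.73. Other chains departed from their calls in the tumor libraries. Col27a1 (-0.01), Col15a1 (-0.25) and Col3a1 (-0.45) were not called here, and Col6a3 was called higher (0.60). Col1a2 kept its lower call but stood at 337 CPM in KO and 499 CPM in WT (-0.94), although 3.85% of KO and 56.7% of WT cells held a UMI. The 2 KO cells with the most held 595 and 37 of the 639 Col1a2 UMIs of the KO sorted library. Those 2 cells also held 329 and 30 UMIs of Col1a1 and 703 and 90 of Col3a1, and 0 and 1 of Ptprc. The first of them held 283 of the 291 Lox UMIs of its library, and in this class Lox had 287 UMIs in KO and 175 in WT (1.60), opposite in sign to the tumor libraries. Without the 2 cells with the most Col1a2 in each library, Col1a2 had 1 UMI in KO and 1883 in WT, a log2 ratio of -9.98 (interval -15.28 to -7.50). Without them the count became 7 higher and 6 lower of 20 chains, Col4a1 had a log2 ratio of 2.28, Col3a1 (-0.74) and Col15a1 (-1.35) became called lower, and Col6a3 was no longer called (0.52). Without the cells with shared barcodes, which keeps those 2 KO cells, Col1a2 was not called (0.12), and 9 of 19 chains were higher and 3 lower. The share of all genes called was not taken under either of these settings, so these recounts have no background beside them.

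Endothelial cells were few, 13 in each tumor library, and are given by values only. They carried the most collagen IV: Col4a1 stood at 3274 CPM in KO and 2277 CPM in WT, and Col4a2 at 1835 and 1352 CPM. Col4a1 exceeded Col4a2 here, with UMI ratios of 1.78 in KO and 1.68 in WT, while graft cells of the same libraries had ratios from 0.448 to 0.534. Col15a1 stood at 624 CPM in KO and 196 CPM in WT and Col18a1 at 191 and 454 CPM. Fibrillar chains were 0.0114% of UMIs in KO and 0.155% in WT endothelial cells, and the fibroblast marker list summed to 9.5 CPM in KO and 648 CPM in WT, a difference whose part in the fibrillar values was not tested. Cells named hematopoietic stem cells in the tumor libraries (192 in KO, 173 in WT) had collagen at 0.216% and 0.566% of UMIs in KO and WT. There the fibroblast list summed to 374 CPM in KO and 1253 CPM in WT. Cells of that name in the sorted libraries had only 0.00354% in KO and 0.0109% in WT.

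Leukocytes held far less collagen RNA than graft cells once sorted, and held much more in the tumor libraries, where their level of other graft RNA was also high. As a percent of the summed collagen level in graft cells of the same library, M1 macrophage-named cells of the tumor libraries reached 33.6% in KO and 30.7% in WT, and M2 macrophage-named cells 31.2% and 58.8%. Graft genes other than collagens (fibroblast markers without Thy1, and Hand2) reached 30.4% in KO and 22.5% in WT M1, and 23.7% and 54.6% in KO and WT M2 macrophage-named cells. In the sorted libraries the collagen level was 2.07% of that of the tumor library's graft cells in KO and 0.778% in WT M1, and 2.35% and 0.630% in KO and WT M2 macrophage-named cells. In the tumor libraries, collagen was concentrated in the macrophage-named cells with no UMI of Ptprc, Coro1a, Cd52 or Laptm5. In KO M1 macrophage-named cells, the 45 cells without such a UMI reached 88.4% and the 158 with one reached 13.4%. In KO M2 macrophage-named cells, the 21 cells without such a UMI reached 65.2% and the 147 with one reached 8.27%. In WT M2 macrophage-named cells, 52 cells without one reached 64.2% and 29 with one reached 38.4%. In the KO tumor library the T, B and NK cell names ran from 1.74% (CD8+ effectors) to 7.34% (NK cells), and B cells stood at 3.24% in KO and 1.67% in WT.

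**Figure D5:**
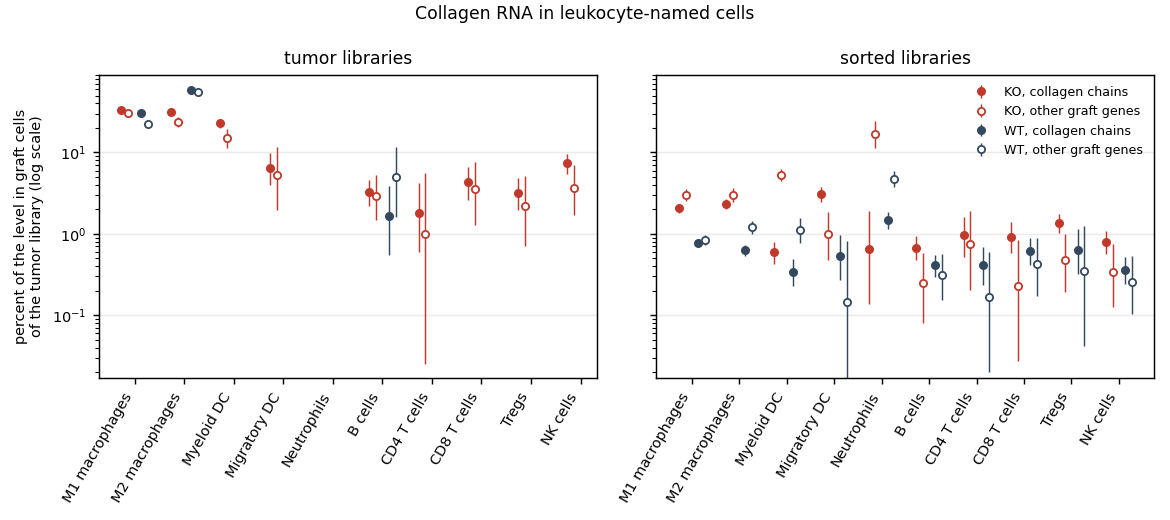
Summed collagen level (filled) and summed level of other graft genes (open) in leukocyte-named cells, as percent of the level in graft cells of the tumor library of the same genotype, on a log scale, KO in red and WT in blue. Of the leukocyte names, 10 are drawn where they had 30 cells and 1 UMI, and bars are 95% counting intervals; macrophage-named cells lie between 30.7 and 58.8% for collagens in the tumor libraries and between 0.630 and 2.35% in the sorted ones.

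The chains of tumor macrophage-named cells did not all follow those of graft cells. Over chains with at least 20 UMIs, their level in KO macrophage-named cells ran from 14.8% (Col3a1) to 186% (Col4a6) of that in KO graft cells. In WT it ran from 21.2% (Col13a1) to 538% (Col5a3) of that in WT graft cells. In M1 macrophage-named cells 9 chains had enough UMIs, of which 2 were higher and 3 lower in KO, against 16% and 11.7% of all 5473 genes. Col1a2 had 2 UMIs in KO and 138 in WT (log2 ratio -6.31), Col3a1 had 65 and 351 (-2.64), and Col1a1 had 68 and 164 (-1.48). Col6a1 had 202 UMIs in KO and 150 in WT (0.22, short of the call). Col4a2 had 59 UMIs in KO and 1 in WT (5.68, interval 3.14 to 11), and Col5a2 had 72 and 14 (2.16). In M2 macrophage-named cells 0 of 12 chains were higher and 10 lower, against 23.9% and 20.8% of all 4818 genes. Col3a1 had 136 UMIs in KO and 656 in WT (-2.38), Col6a1 had 72 and 314 (-2.23), Col6a3 had 94 and 285 (-1.71), Col1a1 had 115 and 242 (-1.18) and Col1a2 had 0 and 113 (at most -5.34). Col5a2 had 17 UMIs in KO and 54 in WT (-1.78), opposite in sign to fibroblast-named cells. The collagen IV chains, higher in KO graft cells, were not called here, with 27 UMIs in KO and 23 in WT for Col4a1 (0.12) and 35 and 33 for Col4a2 (-0.02). The fibroblast marker list summed to 163 CPM in KO and 555 CPM in WT M2 macrophage-named cells, and to 167 and 232 CPM in KO and WT M1 ones, and its part in these ratios was not tested. KO M1 macrophage-named cells also held the smooth muscle gene Acta2 at 618 CPM, against a whole mural marker list of 6.3 CPM in WT.

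In all sorted macrophage-named cells (761 in KO, 1577 in WT), the 5 chains with the most UMIs were Col3a1, Col1a1, Col11a2, Col6a3 and Col6a1. Most were set in part by single cells. Col3a1 had 69 UMIs in KO, 36 of them in 1 cell, and 138 in WT. Col1a1 had 50 UMIs in KO, 24 of them in 1 cell, and 114 in WT. Col6a3 had 49 UMIs in KO, 40 of them in 1 cell, and 47 in WT. Col6a1 had 47 UMIs in KO, 29 of them in 1 cell, and 43 in WT. Col11a2, a fibrillar chain of cartilage, was spread over many cells instead and stood above its level in graft cells. It had 30 UMIs in 26 KO cells (3.42 CPM) and 91 UMIs in 84 WT cells (2.72 CPM), while graft cells of the tumor libraries had 0.472 CPM in KO and 0.213 CPM in WT. Col14a1, a chain that coats fibrils, had 19 UMIs in 17 KO cells (2.16 CPM) and 64 UMIs in 47 WT cells (1.91 CPM), against 1.57 and 0.132 CPM in KO and WT graft cells. In sorted M1 macrophage-named cells the log2 ratios of Col11a2 and Col14a1, -0.18 and 0.32, were short of the call. There 2 of 6 chains were higher and 2 lower, against 20.1% and 23% of all 10798 genes. Col6a1 (37 UMIs in KO, 38 in WT, 1.97) and Col6a2 (21 and 30, 1.49) were the higher ones, and 1 KO cell held 29 of the 37. In sorted M2 macrophage-named cells 2 of 2 chains were higher, Col1a1 (1.52) and Col3a1 (2.13), against 18.3% of all 9350 genes higher and 21.1% lower.

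In migratory dendritic cells Col27a1 stood above the level of graft cells in KO but not beyond counting error in WT. In the sorted libraries it had 68 UMIs in 30 of 90 KO cells (61.3 CPM, interval 47.6 to 77.7) and 9 UMIs in 9 of 46 WT cells (14.8 CPM, interval 6.75 to 28.0), while graft cells of the tumor libraries stood at 3.43 and 2.42 CPM in KO and at 12.5 and 10.9 CPM in WT. Regulatory T cells held Col18a1, with 26 UMIs in 19 of 396 KO cells (16 CPM) and 1 UMI in 94 WT cells (1.94 CPM). With 46 migratory dendritic cells in WT and 1 UMI in WT regulatory T cells, these differences between genotypes have little depth behind them.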

How the data were processed

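Single-cell RNA libraries had been made with the Chromium Single Cell 3′ V3 kit, per the labels' protocols, and mm10, Seurat 4.0.5 and Cell Ranger 6.0.1 appear in the submitters' processing notes. The authors deposited natural log values, ln(1 + 10000 × UMIs / total UMIs of the cell), with cell type names and the total count of UMIs per cell. Inverting the formula gave whole UMIs, within 0.01, for all 60957742 nonzero values, and the sums equalled the deposited totals in all 20376 cells, which held 500 to 126881 UMIs each. There were 0 columns of per-sample values left unused. The authors' cell filter and doublet treatment are not given in the sources used here, and all deposited cells were kept.

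UMIs were summed per gene, cell type name and library and divided by all UMIs of that class (CPM). No scaling by gene length was made, since a 3′ library gives 1 UMI per molecule. The 95% intervals of levels are exact Poisson ones, those of shares are Clopper-Pearson, and those of ratios come from the binomial distribution of 1 library's UMIs given the sum. A gene at 0 UMIs in 1 library was set to a floor of 3 counts and its ratio given as a bound. Such a bound is the ratio at that floor and not the end of the 95% interval. Ratios were taken where a name had at least 50 cells in both libraries. Scripts (Python 3.11.15, numpy 2.4.6, scipy 1.17.1, pandas 2.3.3, matplotlib 3.10.9) were tested on simulated data.

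The members and lists were chosen with earlier results of these data known. Values in each library were given for fibrillar and collagen IV chains with at least 50 UMIs in the graft cells of the tumor libraries, for other chains with at least 200, for the leading leukocyte chains with at least 20, and for the 3 highest and 3 lowest ratios over the biosynthesis and receptor genes as 1 list, which were the same 6 genes in both graft names. That gave 31 chains described one by one and 11 described together. Other genes named (Dpt, Fbln1, Lum, Mfap5, Loxl3, Serpinh1, Itga11, the Y-linked genes, Fam241b and other neighbours, Col14a1, Col27a1 and Col18a1 in leukocytes, Acta2) were picked after their values were seen. Positions come from GENCODE vM21 and promoter windows from RefSeq, both on GRCm38, the build also called mm10. Where genes overlap on 1 strand, or on both where the counting did not use strand, their reads may be mixed.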

Additional observations from a re-analysis of the deposited data

Results flagged for a closer look

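In macrophage-named cells some fibrillar chains had opposite KO over WT directions in 2 groups of cells. None of these differences was tested, since each group is 1 library. In M2 macrophage-named cells the log2 ratio of Col1a1 was -1.18 in the tumor libraries and 1.52 in the sorted ones, and that of Col3a1 was -2.38 and 2.13. In the KO sorted library 1 cell held 24 of the 36 Col1a1 UMIs and 36 of the 50 Col3a1 UMIs of this name. In the tumor libraries, M2 macrophage-named cells held far more fibroblast marker RNA in WT than in KO, as given above. The part of that difference in the tumor ratios was not tested. Within the sorted libraries, M1 and M2 macrophage-named cells differed in sign for Col1a1 (-0.71 in M1, 1.52 in M2) and for Col3a1 (-0.63 in M1, 2.13 in M2). Within the tumor libraries Col5a2 had a log2 ratio of 2.16 in M1 and -1.78 in M2 macrophage-named cells. Its UMIs were 72 in KO and 14 in WT M1, and 17 in KO and 54 in WT M2 macrophage-named cells.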

How the results depend on the processing

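No paired analysis was possible because the results come from no test and each group is 1 library. The counts of chains higher or lower stayed within 1.5 times of those reported under scaling by total UMIs, equal weight per cell, removal of marker doublets or of cells with shared barcodes, a stricter cell filter, other UMI minimums, pooled graft cells, a 2-fold call and removal of the 2 cells with the most Col1a2. The exception was thinning to 2000 UMIs, where 5 chains were higher in neuroblastoma-named cells, of 18 with enough UMIs. The share of all genes called was not taken under the alternative settings. The median over chains ran from -0.16 (stricter filter) to 0.39 (total scaling) in fibroblast-named cells and from -0.78 (thinned) to 0.11 (total scaling) in neuroblastoma-named cells, so its sign depends on the setting. Of 483 values for single chains, 352 stayed within the counting interval, 131 did not, and 0 changed direction after a call. The settings differed widely in this. Thinning moved 34 values past the interval and kept 9, and scaling by total UMIs moved 31 and kept 32. Removal of shared barcodes moved 0 and kept 63, and removal of marker doublets moved 2 and kept 61.

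The collagen percent moved past its counting interval under these settings. Equal weight per cell gave 0.408% in KO and 0.435% in WT fibroblast-named cells and 0.165% and 0.309% in KO and WT neuroblastoma-named cells. The stricter filter left out cells below 1000 UMIs or above 10% mitochondrial UMIs, which were 34.9% of KO tumor and 14.9% of WT tumor cells. With it the collagen percent was 0.295% in KO and 0.380% in WT fibroblast-named cells and 0.149% in KO neuroblastoma-named cells. Without marker doublets it was 0.320% in KO fibroblast-named and 0.153% in KO neuroblastoma-named cells. Without mitochondrial and ribosomal protein UMIs it was 0.514% in KO and 0.644% in WT fibroblast-named cells and 0.238% and 0.454% in KO and WT neuroblastoma-named cells. In macrophage-named cells of the tumor libraries the collagen level was 32.5% of that of graft cells in KO and 44.7% in WT. It was 30.8% and 39.1% in KO and WT without marker doublets, 12.4% and 27.5% with equal weight per cell, and 11.3% and 24.9% in cells with a leukocyte marker UMI, an alternative chosen after seeing the data, as were those on shared barcodes and on Col1a2. The cause was not tested.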

Other observations

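The genes around the 4 most reduced chains were read out in fibroblast-named cells of the tumor libraries, taking 2 genes on each side, chosen after the chains' values were seen. They lay from 17571 bases (Etnppl) to 496369 bases (Gng11) away from the chain. Next to Col1a2, Casd1 had a log2 ratio of KO over WT of 0.69, Sgce 0.45, Gng11 0.17 and Bet1 -0.52. Next to Col26a1, Cux1 had 0.77, Ift22 -0.05 and 4933404O12Rik -0.31, and Myl10 had no UMI in either library. Next to Col25a1, Mcub had 0.87, Sec24b 0.32 and Ostc -0.56, and Etnppl had 29 UMIs in KO and 15 in WT. None of these was reduced like the collagen gene beside it, and Casd1, Cux1 and Mcub were higher by over 1.5-fold. Next to Col13a1, H2afy2, the nearest, was lower by over 1.5-fold (-0.76, interval -0.83 to -0.69), Aifm2 had -0.04 and Tspan15 -0.35, and Fam241b, 128547 bases from the chain, had 6 UMIs in KO and 394 in WT (-6.30, interval -7.76 to -5.17).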
